A study of Mus musculus with 4 samples.

Results

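Fc gamma receptors are the cell surface proteins that bind the constant part of IgG antibodies, and 5 genes for IgG receptors were examined here out of 35798 named in the count table. The 5 were taken by symbol: Fcgr1, Fcgr3 and Fcgr4 for the activating receptors, Fcgr2b for the inhibitory receptor, and Fcgrt for the neonatal receptor. RNA had been sequenced from Ly49H+ NK cells, the subset that recognises murine cytomegalovirus (MCMV), 3.5 days after infection of NSG hosts that had received NK cells of both genotypes together, the wild-type ones marked by CD45.1 and those without TNFR2 by CD45.2. There were 2 libraries per genotype, each sorted from a pool of 3 spleens, and wild-type and TNFR2 KO libraries of the same number came from the same pool. The transferred cells of both genotypes therefore shared the host, the transfer and the infection. The comparison asks how loss of TNFR2 goes with the receptor transcripts. The groups differed in donor genotype, CD45 allele and sort gate at once, which cannot be told apart. NSG mice lack mature T, B and NK cells but keep myeloid cells, and their NOD background itself carries CD45.1. The knockout donors were of a purchased TNFR2-deficient strain, with wild-type donors of the other CD45 allele, and the study was 1 experiment in duplicate, so p-values measure the spread between these pools only.

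Activating receptors pull antibody-coated particles or cells towards effector functions such as phagocytosis and, in NK cells, antibody-dependent killing. Fcgr3, which encodes CD16, is the receptor by which mouse NK cells do this. Fcgr1 encodes the high-affinity receptor CD64 and Fcgr4 a receptor best known from monocytes, macrophages and neutrophils. All 3 need the common gamma chain, encoded by Fcer1g, to reach the surface and to signal, whereas the product of Fcgr2b carries its own inhibitory motif and is the classical Fc receptor of B cells and many myeloid cells. The product of Fcgrt pairs with beta-2 microglobulin inside cells and returns IgG and albumin to the circulation.

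In the mouse genome (GRCm38, GENCODE M21) Fcgr2b, Fcgr4 and Fcgr3 lie side by side on chromosome 1, within 106 kb. Fcgr2b spans chr1:170958617-170976547 on the minus strand, Fcgr4 chr1:171018920-171029761 on the plus strand and Fcgr3 chr1:171051174-171064935 on the minus strand. Fcgr1 is on the minus strand at chr3:96282909-96293969, and Fcgrt on the minus strand at chr7:45092990-45103851. Upstream sequence of the activating receptors is shown because all 3 genes hold the same short word close to their start. It was not found in the windows of Fcgr2b and Fcgrt, but 203 of the 250 bases of the Fcgr2b window lie in annotated exons, and the Fcgr3 window lies within the span of that gene, so the windows are not alike. Each line gives the 120 bases before the RefSeq start site (GRCm38.p6), 5′ to 3′ on the gene's own strand, with matches in capitals. TTCCTC is GAGGAA read on the other strand, the core bound by the myeloid and lymphoid factor PU.1, and TTCCCAGAA matches the interferon-gamma activation site TTCNNNGAA.
Fcgr1, chr3:96293970-96294089, minus strand: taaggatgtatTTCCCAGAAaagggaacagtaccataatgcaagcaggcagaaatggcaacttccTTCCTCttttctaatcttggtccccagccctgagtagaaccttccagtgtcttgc
Fcgr3, chr1:171059404-171059523, minus strand: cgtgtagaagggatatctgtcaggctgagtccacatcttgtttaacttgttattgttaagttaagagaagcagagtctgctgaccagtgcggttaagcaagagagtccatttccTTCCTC
Fcgr4, chr1:171018806-171018925, plus strand: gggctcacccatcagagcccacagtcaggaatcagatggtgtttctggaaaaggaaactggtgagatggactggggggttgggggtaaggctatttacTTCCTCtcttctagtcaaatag

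The GAGGAA match began 55 bases before the start of Fcgr1, 22 before that of Fcgr4 and 6 before that of Fcgr3 (15 before a further listed start of Fcgr3). Searched on both strands over the 250 bases before the start, GAGGAA was held by 3 of the 5 genes and by 23.3% of 32851 mouse promoters. TTCNNNGAA was found only in Fcgr1 among the 5, and in 7.02% of all promoters. The words do not overlap each other, and a match describes letters in a window, not a bound site.

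Library totals ran from 32713256 to 39543650 counts. Of 13822 genes tested with edgeR's quasi-likelihood test and Benjamini-Hochberg adjustment, 1627 were lower and 215 higher in TNFR2 KO at an adjusted p under 0.05 with an absolute log2-fold change over 1, referred to below as both thresholds. Scaling on 19 NK lineage genes in place of TMM shifted all genes to a median log2-fold change of -0.65 and the split to 3027 lower and 46 higher. Tnfrsf1b, which encodes TNFR2, measured 264.7 and 268.6 CPM in the wild-type pair against 55.1 and 58.6 CPM in the knockout pair. It was thus lower, as labelled, though reads remained. Of all genes tested, 6.42% had a lower log2-fold change, so this fall alone cannot check the labels. CPM are counts scaled to a fixed library size after TMM.

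All 5 IgG receptor genes passed the filter on low counts and all 5 were lower in TNFR2 KO at an adjusted p under 0.05, where 26.2% of all genes tested were lower. Fcgr1, Fcgr2b, Fcgr4 and Fcgrt, 4 of the 5, also passed both thresholds, against 11.8% of all genes tested. Fcgr3, the NK cell receptor, was the exception by size. The median log2-fold change of the 5 was -1.89, beside -0.003 over all genes. The 2 genotypes did not overlap for any of the 5, as held for 74% of genes tested. In bulk RNA, fewer cells of a type and less RNA per cell cannot be told apart.

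**Figure D1:**
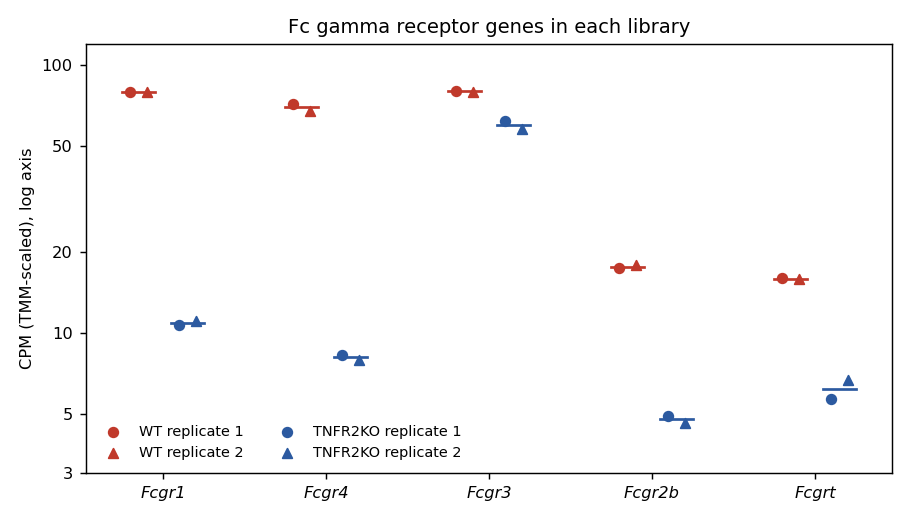
CPM of the 5 IgG receptor genes on a log axis in each library, wild-type (WT) in red and TNFR2 KO in blue, with circles for replicate 1, triangles for replicate 2 and a line at the mean of 2. Fcgr1 and Fcgr4 sit near 70 to 80 CPM in WT and near 8 to 11 CPM in TNFR2KO, while Fcgr3 stays above 57 CPM in every library.

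Fcgr1, the high-affinity receptor, measured 79.6 and 79.3 CPM in the wild-type pair and 10.7 and 11.1 CPM in the knockout pair. Both knockout libraries were far below both wild-type ones, and duplicates differed by less than 1 CPM. The log2-fold change was -2.87 (standard error 0.0538, 95% interval -2.99 to -2.75, adjusted p = 5.58e-13), or 7.30-fold lower. These values rest on 3019 and 2925 counts in wild-type and 414 and 355 counts in TNFR2 KO.

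Fcgr4, the other receptor of monocytes and macrophages, measured 71.7 and 67.5 CPM in the wild-type pair and 8.30 and 7.93 CPM in the knockout pair. It fell the furthest of the 5, by a log2-fold change of -3.10 (standard error 0.0631, 95% interval -3.24 to -2.96, adjusted p = 1.09e-12), or 8.57-fold. Its interval overlapped that of Fcgr1. Within the pools that a wild-type and a knockout library share, Fcgr4 was 8.65-fold lower in pool 1 and 8.52-fold lower in pool 2, and Fcgr1 was 7.44-fold and 7.16-fold lower.

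Fcgr3, the CD16 gene, measured 80.3 and 79.7 CPM in the wild-type pair and 62.1 and 57.7 CPM in the knockout pair. Wild-type libraries were higher in both pools, yet the knockout kept most of the transcript. The log2-fold change was -0.42 (standard error 0.0439, 95% interval -0.51 to -0.32, adjusted p = 6.61e-06), a 1.33-fold difference, and 21.0% of all genes tested had a lower log2-fold change. Its 95% interval lay apart from those of the other 4 genes. With scaling on NK lineage genes the value was -1.07, past both thresholds, where the median of all genes was itself -0.65.

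Fcgr2b, the inhibitory receptor, measured 17.4 and 18.0 CPM in the wild-type pair and 4.89 and 4.62 CPM in the knockout pair. It was 3.72-fold lower in the knockout, a log2-fold change of -1.89 (standard error 0.103, 95% interval -2.12 to -1.67, adjusted p = 1.40e-08). The knockout libraries held only 189 and 148 counts, so it is measured less closely than Fcgr1 or Fcgr4. Fcgr2b and Fcgr3 encode nearly the same extracellular part, and 13.4% of the 31-base stretches of Fcgr3 transcripts, the unit by which Kallisto assigns reads by default, also occur in Fcgr2b. Reads of the more abundant Fcgr3 could thus be counted for Fcgr2b or the reverse. Taken as 1 feature, both together were at -0.59 on the log2 scale (adjusted p = 1.53e-07). No such stretch was shared between any other pair of the 5 genes.

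Fcgrt, the neonatal receptor, measured 16.1 and 15.9 CPM in the wild-type pair and 5.69 and 6.68 CPM in the knockout pair. Its knockout duplicates lay further apart, relative to their level, than those of the other 4, but neither reached the wild-type range. The log2-fold change was -1.37 (standard error 0.109, 95% interval -1.61 to -1.13, adjusted p = 4.90e-07). It was 2.82-fold lower in pool 1 and 2.38-fold lower in pool 2. B2m, the gene of the partner chain of the neonatal receptor and of class I molecules, measured 2926 and 2918 CPM in the wild-type pair and 3239 and 3159 CPM in the knockout pair, giving a log2-fold change of 0.13, or -0.52 once libraries were scaled on NK lineage genes.

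Levels of different genes were compared per kilobase of the longest protein-coding transcript. In wild-type the order was Fcgr3 at 59.4 ± 0.326, Fcgr4 at 55.4 ± 2.37, Fcgr1 at 30.7 ± 0.0712, Fcgrt at 9.02 ± 0.0756 and Fcgr2b at 4.99 ± 0.105 CPM per kb (SD, n = 2 each). Fcgr3 and Fcgr4 were close, with nearest libraries at 59.2 and 57.1 CPM per kb. In TNFR2 KO the order was the same, but Fcgr3 at 44.5 ± 2.35 CPM per kb stood far above Fcgr4 at 6.46 ± 0.208, Fcgr1 at 4.21 ± 0.103, Fcgrt at 3.49 ± 0.396 and Fcgr2b at 1.34 ± 0.0532 (SD, n = 2 each). The place of Fcgrt and Fcgr1 in the knockout is unsure, since with the median in place of the longest transcript length Fcgrt came to 5.21 CPM per kb.

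The make-up of the receptor transcripts therefore differed between genotypes. Fcgr3 made up 39.1% and 39.8% of the summed per-length level of the 4 classical receptors (Fcgr1, Fcgr2b, Fcgr3 and Fcgr4) in wild-type, and 79.2% and 78.3% in TNFR2 KO. Fcgr4 went the other way, from 37.5% and 36.2% to 11.3% and 11.5%, and Fcgr1 from 20.2% and 20.6% to 7.10% and 7.83%. Fcgr2b was the smallest part in every library, at 3.23% and 3.41% in wild-type and 2.37% and 2.38% in TNFR2 KO. These shares do not depend on how libraries are scaled, but that of Fcgr2b depends on the transcript length used, and with the median length it was 7.17% and 7.55% in wild-type and 5.28% and 5.32% in TNFR2 KO. The sum itself was 152.4 and 148.7 CPM per kb in wild-type and 58.2 and 54.7 CPM per kb in TNFR2 KO.

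**Figure D2:**
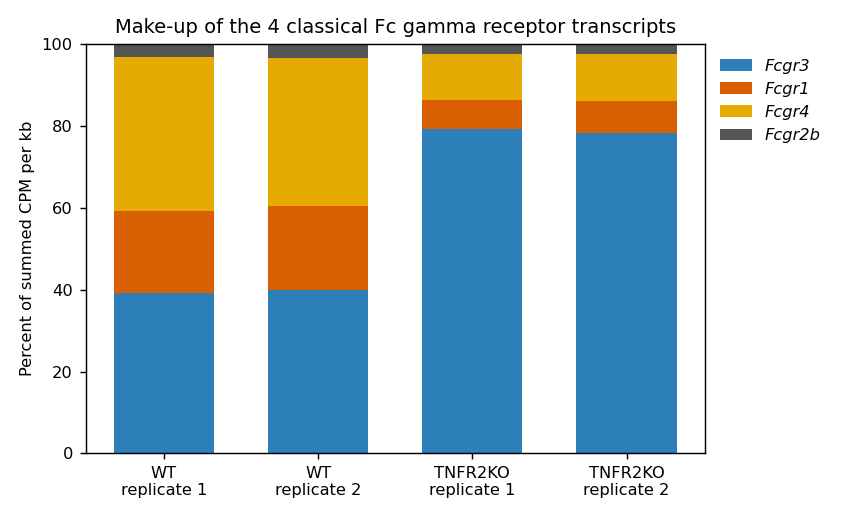
Share of each gene in the summed CPM per kb of the 4 classical Fc gamma receptors, as stacked percentages, 1 bar per library. Fcgr3 fills about 39% to 40% of the bar in both WT libraries and 78% to 79% in both TNFR2KO libraries.

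Set against each other within a library, Fcgr3 exceeded Fcgr1 1.94-fold and 1.93-fold in wild-type and a mean of 10.6-fold in TNFR2 KO on the per-length scale. Fcgr3 exceeded Fcgr4 1.04-fold and 1.10-fold in wild-type and 6.98-fold and 6.78-fold in TNFR2 KO. By contrast, the ratio of Fcgr1 to Fcgr4 was 0.538 and 0.570 in wild-type and 0.626 and 0.678 in TNFR2 KO. The summed activating receptors were 30.0 and 28.3 times Fcgr2b in wild-type and 41.2 and 41.0 times Fcgr2b in TNFR2 KO. With the median transcript length for each gene the last ratio was lower, a mean of 12.6 in wild-type and 17.9 in TNFR2 KO. An exact permutation test of any such ratio cannot give a two-sided p under 0.333 with 2 libraries against 2, so these are descriptions.

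Around the chromosome 1 cluster, the neighbouring genes changed in both directions under TMM scaling. GENCODE M21 places 19 other protein-coding genes within 250 kb of Fcgr3, and 11 of them were tested. Of the 11, 3 were lower and 3 higher at an adjusted p under 0.05, with none past both thresholds. Among all genes tested 26.2% were lower, 24.2% higher and 13.3% past both thresholds, so the first 2 counts are near those shares. Log2-fold changes of the 11 ran from -0.58 to 0.94. Fcer1g, 165 kb from Fcgr3, was the most abundant of them. Atf6, a sensor of stress in the endoplasmic reticulum, was at 0.13 on the log2 scale (adjusted p = 0.00745), and at -0.52 once libraries were scaled on NK lineage genes. Its call was lost with library size alone and without wild-type replicate 2. Ptprc, the gene whose alleles give CD45.1 and CD45.2, lies on the same chromosome, 32.8 Mb from Fcgr2b, so chromosome 1 alleles that differ between the donors cannot be told apart from the TNFR2 genotype.

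**Figure D3:**
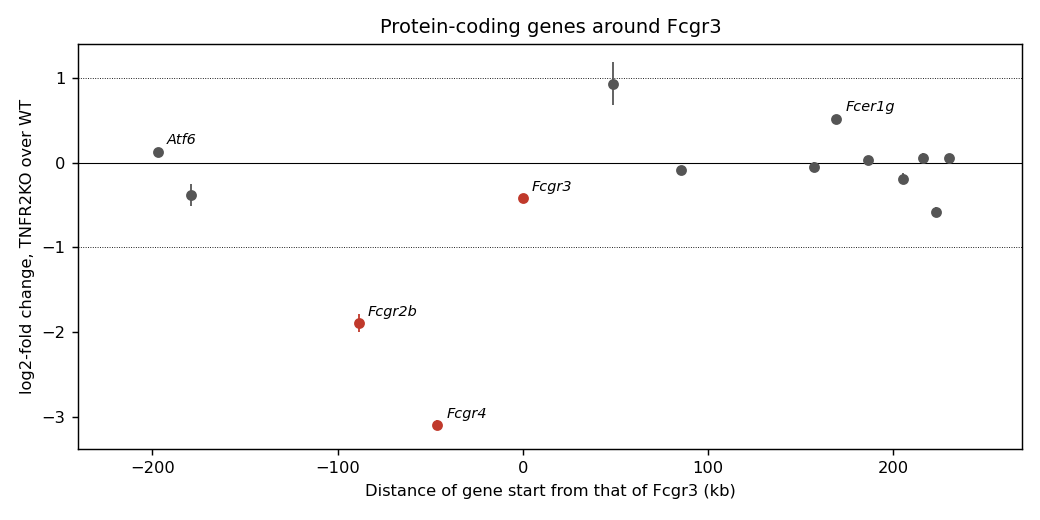
Log2-fold change of TNFR2KO over WT (points, with 1 standard error) for the tested protein-coding genes around Fcgr3 (receptor genes, Fcer1g and Atf6 labelled), against the distance of their start from that of Fcgr3 in kb; dotted lines mark a log2-fold change of 1 either way. The receptor genes are in red, with Fcgr2b and Fcgr4 below -1, while the other genes lie between -0.58 and 0.94.

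The signalling chains of these receptors did not follow the receptors. Fcer1g, which encodes the common gamma chain, measured 337.6 and 334.2 CPM in the wild-type pair and 487.4 and 478.0 CPM in the knockout pair, giving a log2-fold change of 0.52 (adjusted p = 3.53e-09) but -0.13 once libraries were scaled on NK lineage genes. Cd247, the zeta chain that can pair with it in NK cells, measured 193.7 and 197.2 CPM in the wild-type pair and 276.3 and 266.9 CPM in the knockout pair, giving a log2-fold change of 0.48, or -0.17 under that scaling. Its count is less sure, since 57.7% of its 31-base stretches also occur in transcripts of other genes. Relative to Fcer1g, the summed activating receptors were at 0.298 and 0.293 per length in wild-type and at 0.0797 and 0.0763 in TNFR2 KO. Fcgr3 alone was at 0.121 of Fcer1g in each wild-type library, against 0.0646 and 0.0612 in the knockout.

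Beyond the receptors, 55 further genes of the pathway stood in 7 lists, of which 44 could be tested. Among these, 18 were lower and 17 higher in TNFR2 KO at an adjusted p under 0.05, where 26.2% of all genes tested were lower, 24.2% higher and 50.4% either. Past both thresholds 8 were lower and 1 higher, where 11.8% of all genes were lower, 1.56% higher and 13.3% either. The kinases that act first on the receptor chains were split. Of 8 SRC and SYK family kinases, 3 were lower and 4 higher, with a median log2-fold change of -0.01. Lck and Fyn, SRC kinases of T and NK cells, had log2-fold changes of 0.31 each and Zap70, which binds phosphorylated chains, one of 0.35, but -0.34, -0.34 and -0.30 once libraries were scaled on NK lineage genes. Lyn, a SRC kinase of B and myeloid cells, was lower past both thresholds, at -1.02, one of 2 in the list to be so.

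The 5 inhibitory genes held none past both thresholds, and 2 were lower and 2 higher, beside 26.2% and 24.2% of all genes tested. Inpp5d encodes SHIP1, the phosphatase that the product of Fcgr2b recruits, and measured 259.4 and 255.7 CPM in the wild-type pair and 283.1 and 290.5 CPM in the knockout pair. Its log2-fold change was 0.15, and -0.49 with scaling on NK lineage genes. Csk, a kinase that restrains SRC kinases, had a log2-fold change of 0.14, which was -0.51 under that scaling, and Ptpn6, which encodes the phosphatase SHP1, fell by 0.56 on the log2 scale, and by 1.21 under that scaling, where it passed both thresholds. The inhibitory receptor and its phosphatase thus had changes of opposite sign under TMM scaling, and of the same sign under scaling on NK lineage genes.

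Further downstream, 7 of 16 signalling genes were lower and 6 higher, beside 26.2% and 24.2% of all genes tested. Past both thresholds were 2 of the 16, near the 13.3% of all genes tested. These were Btk, a TEC kinase of B and myeloid cells, at 23.99 and 21.2 CPM in the wild-type pair against 3.49 and 3.00 CPM in the knockout pair, and Vav2, an exchange factor for small GTPases, with a log2-fold change of -1.04. Rac2, the most abundant of the list, is a GTPase of blood cells. Its log2-fold change was 0.33 and Pik3cd, a PI3-kinase subunit of leukocytes, one of 0.15, but with scaling on NK lineage genes they were at -0.32 and -0.50. Lcp2, which encodes the adaptor SLP76, fell by 0.28 on the log2 scale.

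**Figure D4:**
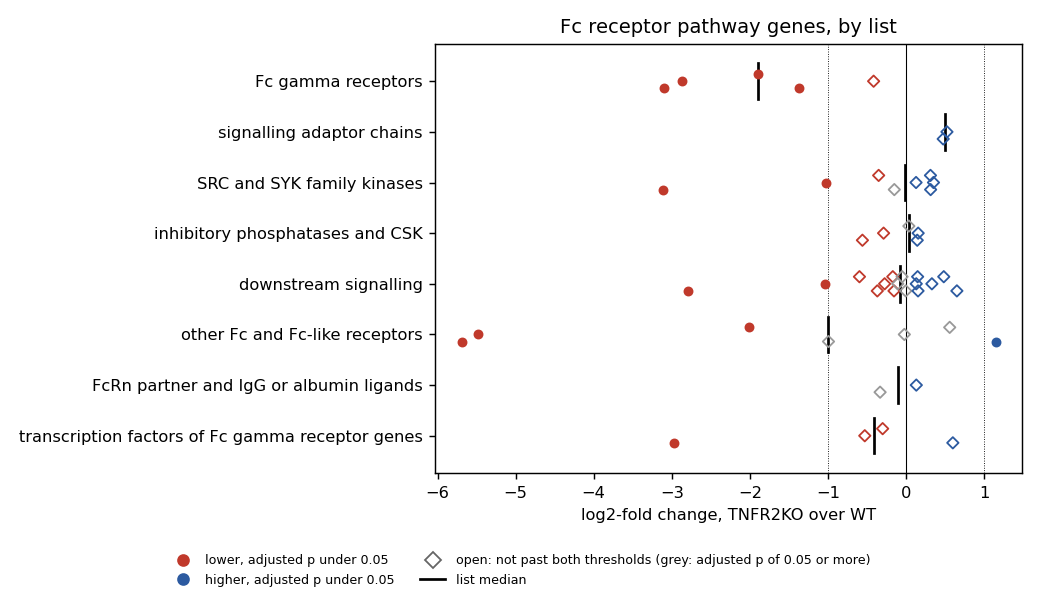
Log2-fold change of TNFR2KO over WT for each tested gene of the receptor family and the 7 pathway lists (rows), with black bars at list medians and dotted lines at 1 either way; filled points are past both thresholds. The IgG receptors have a median of -1.89, while the kinase, phosphatase and downstream lists have medians between -0.08 and 0.04, and the kinase and downstream lists each hold 2 genes past both thresholds on the left.

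Of 13 other Fc and Fc-like receptors, 7 could be tested. Ms4a2 and Fcer1a encode the beta and alpha chains of the high-affinity IgE receptor of basophils and mast cells, which uses the same gamma chain. Ms4a2 measured 64.4 and 62.7 CPM in the wild-type pair and 1.14 and 1.34 CPM in the knockout pair, and Fcer1a 41.4 and 41.1 CPM against 1.06 and 0.749 CPM. Their log2-fold changes were -5.69 and -5.49, larger in size than that of any IgG receptor. Fcrl1, an Fc receptor-like gene named after its values were seen, passed both thresholds too, at -2.01 from about 1 CPM. Fcgbp, an IgG-binding secreted protein that was also named after its values were seen, was the only one higher past both thresholds, at 1.15 on the log2 scale and under 10 CPM in all libraries. Trim21, the cytosolic antibody receptor, was at -0.02 on the log2 scale (adjusted p = 0.702), but at -0.67 and called lower (adjusted p = 2.41e-08) with scaling on NK lineage genes. Transcripts of the ligands were nearly absent, as 3 of the 7 genes for the partner and ligands had 0 counts in all libraries, and Ighg2b and Ighg3 held at most 1 count in each library; Igkc was at 1 to 2 CPM.

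Among 4 transcription factors known to act on Fc receptor genes, 3 were lower and 1 higher, beside 26.2% and 24.2% of all genes tested. Spi1, which encodes PU.1, measured 71.7 and 73.0 CPM in the wild-type pair and 8.95 and 9.58 CPM in the knockout pair, giving a log2-fold change of -2.97 (adjusted p = 8.68e-13). Irf1, an interferon-induced factor, was at -0.30 on the same scale. Irf8, needed by monocytes and dendritic cells and also made by NK cells, was at 0.60, and at -0.05 with scaling on NK lineage genes.

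Genes with the most similar pattern were sought among 8758 other genes of at least 10 CPM, by the distance between gene-centred log2 CPM over the 4 libraries. Nearest to Fcgr1 were Slc40a1 (distance 0.0230), the iron exporter of macrophages, C1qc (0.0255), a complement chain, and Nfam1 (0.0435). Nearest to Fcgr4 were Clec4a3 (0.0521), a lectin receptor, Kcnj10 (0.0603) and Tlr13 (0.0623), a Toll-like receptor. Fcgr2b was nearest to Slc31a2, 5031439G07Rik and Iigp1, at distances of 0.0693 to 0.0795. Fcgrt was nearest to Selenop, Slc43a2 and Cd86, at 0.0547 to 0.0830. Fcgr3 had other neighbours, Evi2a (0.0101), Ap3s1 (0.0222) and Thop1 (0.0244), whose log2-fold changes were all -0.42. Slc40a1 and C1qc also stand in the macrophage list described next. With 4 libraries these distances mostly reflect the size of the change between genotypes.

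The cells had been enriched for NK cells by negative selection and then sorted for Ly49H and a CD45 allele, yet markers of other cells were present and moved with genotype as well. Of 25 macrophage or monocyte markers, chosen without the IgG receptors, 23 were lower past both thresholds, where 11.8% of all genes tested were. The quartiles of this list, -3.24 and -2.77, enclosed the changes of Fcgr1 and Fcgr4 but not those of Fcgr2b, Fcgr3 and Fcgrt. The wider quartiles of the neutrophil markers (-4.15 and -1.83) enclosed Fcgr1, Fcgr4 and Fcgr2b, so by quartiles no list was matched alone. The value of -4.15 falls between Prtn3 at -5.65 (named after its value was seen) and Ngp at -2.66, with no marker between them. Fcgr1 and Fcgr4 lie in that gap, so for them the enclosure is a weak match. The quartiles of the dendritic cell or class II markers (-3.54 and -0.96) enclosed all of the 5 but Fcgr3. Their upper quartile is the value of Xcr1, named after its values were seen, at 0.50 and 0.41 CPM in wild-type and not called. That enclosure is therefore a weak match. The median of the macrophage or monocyte list was -2.95. Its summed level was 4203 to 4292 CPM in wild-type and 1486 to 1499 CPM in TNFR2 KO, and no marker was at 0. The 2 that were not lower, Ccr2 and Ly6c2 (Ly6c2 picked once values were known), are also made by NK cells and had log2-fold changes of 0.78 and 0.26. The other 23 summed to 3563 to 3621 CPM in wild-type and 499.7 to 501.8 CPM in TNFR2 KO, 7.17-fold lower. The sum of the whole list was 2.85-fold lower. These 23 were kept by their calls, so the fall of their sum follows from that choice. Lyz2 and Mpeg1, the lysozyme and perforin-2 genes, fell by 2.79 and 3.29 on the log2 scale.

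All 15 neutrophil markers were lower past both thresholds, where 11.8% of all genes tested were. Their summed levels were 1028 to 1046 CPM in wild-type and 102.5 to 106.8 CPM in TNFR2 KO. Their log2-fold changes were unlike, from -7.77 to -1.02. Mpo, the most abundant in wild-type at 355.5 and 361.3 CPM, was 90.4-fold lower. S100a9 and Ngp were 4.66-fold and 6.32-fold lower. Elane, Ctsg and Prtn3, named after their values were seen, were 218.9-fold, 68.9-fold and 50.1-fold lower. The fall of the sum thus leans on Mpo, but not on Mpo alone. Of 9 tested basophil or mast cell markers 8 were lower and 1 higher, with sums of 1168 to 1169 CPM against 98.6 to 98.7 CPM. Cma1, a mast cell protease gene named after its values were seen, was the higher one, at 71.9 and 73.3 CPM in TNFR2 KO. The other 8 summed to 1145 to 1147 CPM against 25.3 to 26.8 CPM. These 8 too were kept by their calls, so the fall of their sum follows from that choice. Of 9 dendritic cell or class II markers 5 were lower past both thresholds, with sums of 1716 to 1753 CPM against 149 to 150 CPM. The class II genes Cd74, H2-Ab1, H2-Aa and H2-Eb1, with wild-type means of 213.9 to 916.3 CPM, carried these sums. Flt3, Xcr1, Siglech and Zbtb46 were not called, at no more than 2.93 CPM in any library. Clec9a was lower from a wild-type mean of 1.58 CPM. Genes beyond the 3 most abundant were named here after their values were seen. The B cell markers were near 0 in both genotypes, with summed levels of 2.77 to 3.63 CPM, and Pax5 held at most 1 count in any library. All 14 NK cell markers were higher in TNFR2 KO, 5 of them past both thresholds, where 24.2% and 1.56% of all genes tested were. Their sums were 16397 to 16480 CPM in wild-type and 29931 to 30202 CPM in TNFR2 KO. Scaled on NK lineage genes, the median of these markers was 0.25 in place of 0.90, and Il2rb was at -0.21. That scaling removes the mean change of its own genes, which include several of these markers, Il2rb among them. The scaled values therefore cannot test the rise of the markers. The part of these other cells in the changes of the 5 receptor genes was not tested.

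**Figure D5:**
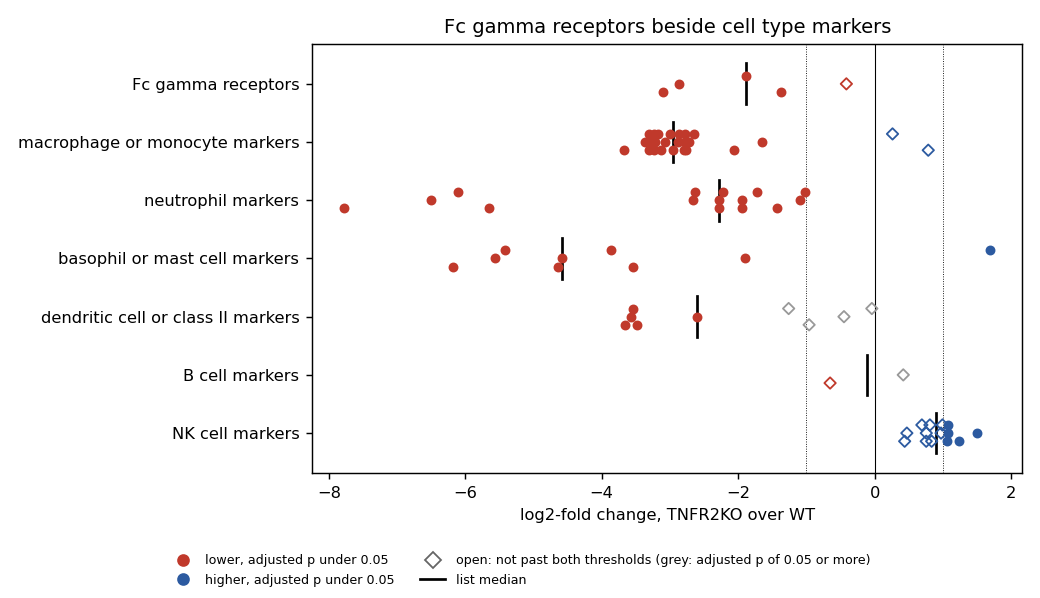
Log2-fold change of TNFR2KO over WT for the 5 IgG receptor genes and for each tested marker of 6 cell types (rows), with black bars at list medians, dotted lines at 1 either way and filled points for genes past both thresholds. Fcgr1 and Fcgr4 fall among the macrophage or monocyte markers (median -2.95), Fcgr3 lies between these and the NK cell markers (median 0.90).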

How the data were processed

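Expected counts per gene symbol were deposited for 4 libraries, without scaling between them. The authors trimmed paired-end reads of poly-A selected, stranded libraries with Trimmomatic (1.4), assigned them to mm10 transcripts with Kallisto (0.46.1) and summed them per gene with Tximport; which transcript annotation was used is not given in the sources here. A row without a gene name (0.056% to 0.073% of counts) was left out.

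After rounding to integers, counts were scaled with TMM, filtered with filterByExpr and tested with edgeR 4.0.16 (R 4.3.3; glmQLFit, glmQLFTest, genotype as the only term) with adjustment over 13822 genes. Standard errors are the log2-fold change over the root of F, and intervals use 11.6 degrees of freedom. Steps were tested on simulated data in which a small share of genes rose and fell in equal number. That setting does not test the choice of scaling. Between duplicates, mean chi-square per gene was 3.27 and 3.47, above sampling noise, and the biological coefficient of variation was 3.33%.

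The labels pair same-numbered libraries by spleen pool, so the numbers pair the samples; deviations of same-numbered libraries correlated at 0.15. Alternatives were other scalings, DESeq2 1.42.0 (the study's tool), other filters, the replicate block and each library left out. Positions, lengths and 31-base stretches come from GENCODE M21, which stands in for the authors' annotation, and promoters from RefSeq (GRCm38.p6, all 5 genes matched).

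Members and gene lists were chosen with earlier results of these data known. Genes named are the 5 members, Tnfrsf1b, the 3 most abundant of each list, the 2 largest changes past both thresholds in each pathway list, the 3 nearest in pattern and the 3 most abundant neighbours; exceptions are marked, and a few genes that the rule takes are not reported here. Intervals cover counting and duplicate error only.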

Additional observations from a re-analysis of the deposited data

How the results depend on the processing

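All 5 receptor genes stayed lower at an adjusted p under 0.05 under each of the 12 alternatives. With each library left out in turn, log2-fold changes were between -2.89 and -2.83 for Fcgr1, -1.93 and -1.85 for Fcgr2b, -0.46 and -0.36 for Fcgr3, -3.13 and -3.05 for Fcgr4, and -1.48 and -1.25 for Fcgrt. These fits leave 1 genotype with a single library, which is assumed to vary like the pair of the other genotype, so their p-values rest on that pair alone. Each was lowest with scaling on NK lineage genes, at -3.52, -2.54, -1.07, -3.75 and -2.02. With the replicate block, which pairs libraries of a pool, values for Fcgr1 to Fcgrt were -2.87, -1.89, -0.42, -3.10 and -1.37, and the block changed no other call among the results given. Over all genes, 6965 passed the adjusted p threshold and 1842 both thresholds, 7088 and 1830 with the block, 11770 and 3073 with scaling on NK lineage genes, and 480 of 8765 passed both when a mean of 10 CPM was required. Under scaling on NK lineage genes 14 pathway genes passed both thresholds, and Fcer1g (-0.13), Cd247 (-0.17), Lck (-0.34), Fyn (-0.34), Zap70 (-0.30), Csk (-0.51), Inpp5d (-0.49), Rac2 (-0.32), Pik3cd (-0.50), B2m (-0.52), Irf8 (-0.051), Blk (-0.22), Il2rb (-0.21) and Atf6 (-0.52) changed sign, as the shift of all genes by -0.65 brings; Irf8 and Blk were not called there (adjusted p = 0.094 and 0.71). Trim21 (-0.67) and Igkc (-0.98) were called lower only under that scaling among the 12 alternatives. Depth limits Fcgr2b and Fcgrt most in TNFR2 KO, with 148 to 220 counts a library.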
